A study of Mus musculus with 10 samples.

Results

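The genes described here are 32 mouse genes of the heat shock response and the unfolded protein response (UPR), a named set whose choice used no measured value as a threshold. They comprise 9 cytosolic chaperones, 3 mitochondrial chaperones, 12 chaperones and folding enzymes of the endoplasmic reticulum (ER), 4 genes of XBP1 and ER-associated degradation, and 4 genes of ATF4 and its targets. Probes annotated to a single member symbol were found for 28 of them, and 27 had a probe with a value on every array, so 27 of the 14365 genes tested are members. Hspa1b, Hsp90ab1, Pdia6 and Trib3 had no such probe. The probe for Xbp1, the transcription factor made by splicing in the UPR, had a value on the WT 1.5 h array alone, where its centred log2 ratio was 2.56, and it was not tested.

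The study compared samples labelled Sirt6-/- (KO) and wild type (WT) during exposure to TNF-alpha, an inflammatory cytokine. Sirt6 encodes a deacetylase that acts on chromatin. Each genotype had arrays a and b at 0 h and a single array at 1.5 h, 6 h and 24 h, which gives 5 KO and 5 WT arrays. The 8 groups are therefore KO at 0, 1.5, 6 and 24 h and WT at the same times, and all of them share the same design of a Cy5-labelled sample beside a Cy3-labelled universal mouse reference. The cell type, the knockout allele and the age and number of animals are not given in the sources used here.

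Values are log2 ratios of sample over reference after each array's median over genes was subtracted, so a value of 1 is a ratio 2 times the median ratio of that array. They compare arrays for the same gene and do not rank genes by abundance, because each gene is set against its own amount in the reference RNA. Neither the base nor the sign of the deposited ratios is stated. Here they are taken as base 2 and as sample over reference, since they span -8.231 to 8.972 and since Ccl2, a chemokine induced by TNF-alpha, was 2.84 higher at 1.5 h than at 0 h under that reading (limma, adjusted p = 0.0107). Nothing states that letters a and b mark separate cultures or animals, so each p-value measures a spread between arrays that may be technical. In such bulk RNA, fewer cells that express a gene and less RNA per cell cannot be told apart.

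Some arrays stand apart. Sirt6 itself measured -1.05, -0.82, -0.76 and -1.16 on the KO arrays at 0 h a, 0 h b, 1.5 h and 6 h, but -0.05 on the array labelled KO at 24 h, against -0.16 to 0.07 on the 5 WT arrays. The KO 24 h array is thus in the WT range for the targeted gene, and results that rest on it carry that doubt. The KO 0 h pair correlated at 0.598 over spots and the WT 0 h pair at 0.782, and KO 0 h b had the widest spread of ratios (SD 0.983, against 0.551 to 0.833 on the other arrays). By the image numbers of the labels the 5 WT arrays came first and the 5 KO arrays after them, so genotype and array order cannot be told apart. Markers of other cell contents also differed by genotype: the medians of 17 striated muscle genes were 0.26 to 0.62 on KO arrays and -0.19 to -0.06 on WT arrays, and the medians of 23 cell cycle and DNA replication genes were -1.04 to -0.59 on KO arrays and -0.55 to -0.32 on WT arrays. Medians of 10 macrophage genes were -1.97 to -0.75 on KO arrays and -1.84 to -0.83 on WT arrays, and those of 11 fibroblast genes were 0.37 to 0.77 on KO arrays and 0.53 to 0.92 on WT arrays. The macrophage medians crossed by time. KO was lower at 0 h (-1.62 and -1.97, against -1.10 and -1.31), 1.5 h and 24 h, and higher at 6 h (-0.75, against -1.84). In the interaction at 6 h all 10 macrophage genes were above 0 (median 1.28), where 48.1% of all genes were. Ratios to a reference have no zero, so no marker can be called absent. The part of any of these lists in the results on chaperones was not tested.

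Cells meet unfolded proteins with compartment-specific programmes. In the cytosol, heat shock factor binds heat shock elements and raises the HSP70, HSP90 and small heat shock proteins. In the ER, the sensors ATF6, IRE1 and PERK act through ATF6, spliced XBP1 and ATF4, which raise ER chaperones, the machinery of ER-associated degradation, and genes of amino acid supply and of the stress response.

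RefSeq promoters (GRCm38.p6) were matched for 27 of the 32 members, and 4 motifs were searched on both strands in the 250 bases before each start. Hspa8, Hsp90aa1, Hsp90ab1, Hspa9 and Manf had no entry. The ER stress response element I, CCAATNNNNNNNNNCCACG, which ATF6 and XBP1 are known to bind with NF-Y, stood in 8 of 27 members (29.6%) against 35 of 27025 genes (0.13%). The 8 were Calr, Canx, Creld2, Dnajc3, Hsp90b1, Hspa5, Pdia6 and Syvn1. The heat shock element GAANNTTCNNGAA stood in Hspd1 and Hspe1 (7.41% of members, against 0.514% of genes), the UPR element core TGACGTG in Hspa5 (3.7%, against 1.85%), and the C/EBP-ATF composite element TGATGNAAN in Asns and Herpud1 (7.41%, against 3.89%). A match is a description of letters and not a site shown to act, and an absent match says only that these letters are not in this window. The stretches below are shown because they hold these letters in members whose values follow, with the motif letters in capitals, 5′ to 3′ along each gene's strand.
Hspa5, chr2:34771918-34772058, plus strand: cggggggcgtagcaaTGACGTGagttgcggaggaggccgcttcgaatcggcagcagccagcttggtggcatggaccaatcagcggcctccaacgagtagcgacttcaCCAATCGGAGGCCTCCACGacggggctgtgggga
Hsp90b1, chr10:86705518-86705671, minus strand: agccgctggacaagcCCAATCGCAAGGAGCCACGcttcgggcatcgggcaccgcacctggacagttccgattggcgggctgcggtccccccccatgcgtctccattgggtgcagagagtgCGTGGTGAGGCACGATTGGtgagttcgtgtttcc
Calr, chr8:84847060-84847108, minus strand: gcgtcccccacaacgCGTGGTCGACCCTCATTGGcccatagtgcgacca
Canx, chr11:50325785-50325833, minus strand: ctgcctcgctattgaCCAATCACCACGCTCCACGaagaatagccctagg
Creld2, chr15:88819505-88819553, plus strand: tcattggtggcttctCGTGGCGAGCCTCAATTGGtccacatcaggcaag
Dnajc3, chr14:118937812-118937860, plus strand: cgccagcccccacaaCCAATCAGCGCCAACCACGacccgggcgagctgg
Syvn1, chr19:6046517-6046565, plus strand: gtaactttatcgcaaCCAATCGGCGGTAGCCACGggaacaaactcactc
Hspe1, chr1:55088044-55088091, plus strand: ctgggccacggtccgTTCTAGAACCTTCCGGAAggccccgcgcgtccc
Asns, chr6:7693210-7693247, minus strand: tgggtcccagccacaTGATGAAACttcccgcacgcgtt
Herpud1, chr8:94386301-94386339, plus strand: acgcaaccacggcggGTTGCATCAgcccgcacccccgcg
Hsp90b1 held 2 copies of the ER element, at -212 to -194 and -107 to -89 from its start, and Hspa5 held a copy at -65 to -47 with the UPR core at -157 to -151. The Hspe1 stretch holds 2 overlapping heat shock matches and is also the promoter of Hspd1, which is read from the opposite strand, so these genes share their only matches. The composite element lay at -23 to -15 in Asns and, on the opposite strand, at -113 to -105 in Herpud1.

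Across the 8 comparisons no member passed limma's test at an adjusted p under 0.05 over all 14365 genes. The table of all genes gave few calls as well: 0% of genes in KO minus WT at 0 h, 0.00696% in the response to TNF-alpha at 1.5 h, 0.0139% at 6 h and 0.0139% at 24 h, and 0% in KO minus WT averaged over times. In the interactions, which are the KO response minus the WT response, 0% of genes were called at 1.5 h, 0.00696% at 6 h and 0.0278% at 24 h. Members are not replicates, and the counts that follow are a description. At all 4 times, 10 of 27 members (37%) measured lower in KO than in WT, against 9.05% of all genes, and 0 of 27 measured higher in KO at all 4 times, against 5.97% of all genes. The 10 were Hspa4, Hspa8, Hsph1, Hspa5, Canx, Sdf2l1, Creld2, Syvn1, Atf4 and Asns. Any size of difference counts here. Canx at 1.5 h measured 0.2393 in KO and 0.2405 in WT, and Syvn1 at 24 h measured -0.386 in KO and -0.375 in WT. The count also needs the doubtful KO 24 h array, and it uses means of probes, which differed for Atf4 and Asns as given below. Single probes of Canx, Hspa4 and Hspa8 were also higher in KO at some time. At 1.5 h a Canx probe measured 0.55 in KO and 0.37 in WT, and a Hspa4 probe 0.75 and 0.62. At 24 h the other Canx probe measured 0.76 in KO and 0.36 in WT, and a Hspa8 probe 0.71 and 0.30. No member had KO and WT ranges that did not overlap (0 of 27), where 2.24% of all genes had such ranges, 1.28% with every KO array below every WT array and 0.961% with every KO array above.

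**Figure D1:**
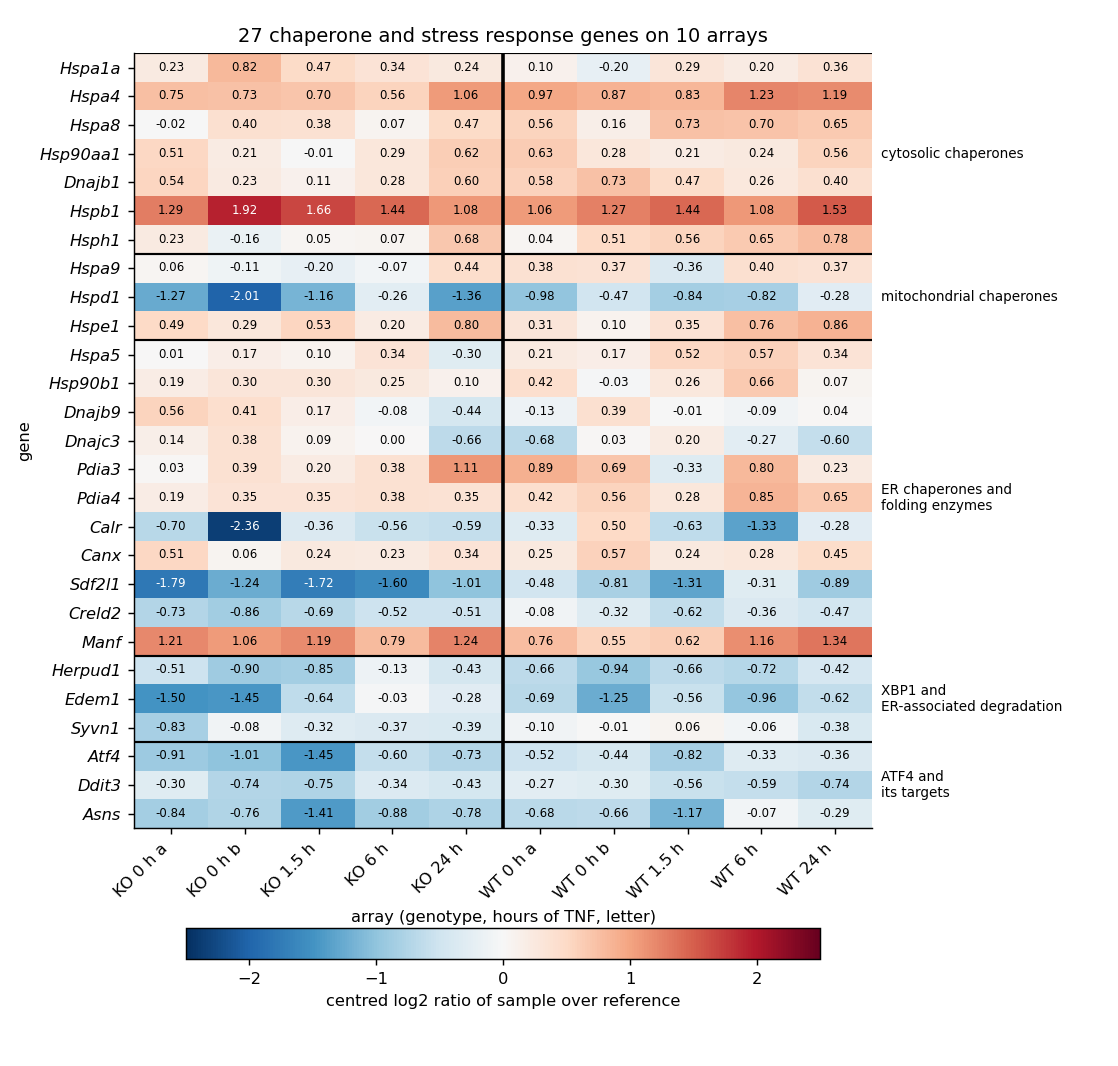
Centred log2 ratio of sample over reference for the 27 tested members (rows, by class) on the 5 KO arrays (left of the thick line) and the 5 WT arrays (right), with the value printed in each cell; colours end at -2.5 and 2.5. The lowest value is Calr on KO 0 h b, and the ATF4 rows are negative on every array.

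The count of members lower in KO at all 4 times depended on how arrays were brought to a common scale. It was 8 of 27 without centring (29.6%, against 11.1% of genes), 7 with quantile normalization (25.9%, against 9.24%), 7 with arrays scaled to equal spread (25.9%, against 10.3%) and 5 with the local trend along the spots subtracted (18.5%, against 8.97%). Atf4 and Hspa8 were in the count under all 5 settings. Without centring the median gene itself was -0.20 in KO minus WT at 0 h, against -0.04 with centring.

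Of the 5 classes, ATF4 and its targets had the lowest median genotype average. That median of 3 genes is the value of Asns, -0.36, between Atf4 at -0.45 and Ddit3 at -0.02. Atf4 encodes the transcription factor whose translation rises when PERK or another kinase phosphorylates eIF2. It measured -0.91, -1.01, -1.45, -0.60 and -0.73 on KO arrays at 0 h a, 0 h b, 1.5 h, 6 h and 24 h, against -0.52, -0.44, -0.82, -0.33 and -0.36 on the WT arrays in the same order. KO was lower at each time, and the groups overlapped only because WT at 1.5 h lay below KO at 6 h and at 24 h. The average KO minus WT was -0.45 (SE 0.12), rank 176 of 14365 genes by p-value, with limma's adjusted p = 0.428. It was -0.24 with quantile normalization (adjusted p = 0.494), -0.27 with arrays scaled to equal spread (adjusted p = 0.421), and -0.47 without the doubtful KO 24 h array (adjusted p = 0.457).

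Asns, asparagine synthetase and a target of ATF4, followed a similar course. It measured -0.84, -0.76, -1.41, -0.88 and -0.78 on the KO arrays and -0.68, -0.66, -1.17, -0.07 and -0.29 on the WT arrays. Both genotypes were lowest at 1.5 h, and the genotypes parted most at 6 h. The average KO minus WT was -0.36 (SE 0.14, adjusted p = 0.496). It was -0.14 with quantile normalization (adjusted p = 0.814), -0.16 with arrays scaled to equal spread (adjusted p = 0.780) and -0.25 without the KO 6 h array (adjusted p = 0.458).

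At 1.5 h of TNF-alpha the same genes had the smallest p-values among members. The mean response of Asns over both genotypes was -0.55 (SE 0.20), rank 211 of 14365 by p-value, and that of Atf4 was -0.42 (SE 0.17), rank 356, both with an adjusted p = 0.997. For Atf4 the 1.5 h array minus the 0 h mean was -0.49 in KO and -0.35 in WT, and for Asns it was -0.61 in KO and -0.50 in WT. Ddit3, the stress factor CHOP that ATF4 activates, was also below its 0 h mean at 1.5 h in both genotypes, at -0.23 in KO and -0.28 in WT. Ddit3 did not share the genotype pattern. It measured -0.30, -0.74, -0.75, -0.34 and -0.43 on KO arrays and -0.27, -0.30, -0.56, -0.59 and -0.74 on WT arrays, so KO was higher than WT at 6 h and 24 h.

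The values above are means of 2 probes for each gene, and the differences in Atf4 and Asns lay with 1 probe of each pair. One Atf4 probe measured -1.51, -1.76, -2.80, -1.03 and -1.38 on KO arrays and -0.77, -0.53, -1.51, -0.66 and -0.53 on WT arrays. The other probe of the same transcript lay between -0.31 and -0.07 on KO arrays and between -0.35 and 0.01 on WT arrays. Fitted alone among 21197 probes, the first gave an average KO minus WT of -0.89 (SE 0.17, limma adjusted p = 0.358) and the second -4e-04 (SE 0.13). Its response at 1.5 h was -1.0035 (SE 0.23, adjusted p = 0.708) on the first probe and 0.19 (SE 0.18, adjusted p = 0.999) on the second. For Asns the probe with the lower ratios gave -0.63 (SE 0.19, adjusted p = 0.435) in the genotype average and -1.06 (SE 0.26, adjusted p = 0.737) at 1.5 h, where the other gave -0.09 (SE 0.15) and -0.02 (SE 0.21). In both genes the lower KO values were on the probe whose ratio to the reference was low, and the other probe gave an average near 0.

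**Figure D2:**
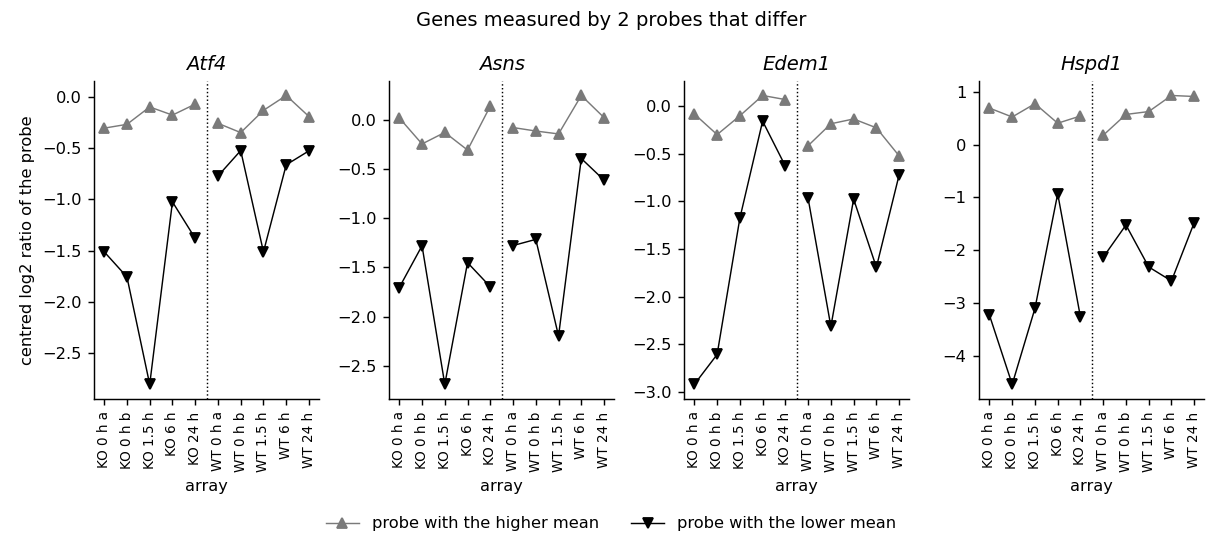
Centred log2 ratio of each of the 2 probes of Atf4, Asns, Edem1 and Hspd1 on the KO arrays (left of the dotted line) and the WT arrays (right); lines join arrays of a genotype only to guide the eye. In each gene the probe with the lower mean (black) moves across arrays and the probe with the higher mean (grey) keeps to a narrower band.

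Low-ratio probes were the more variable ones among members. Probes of members whose mean ratio was below -1 numbered 5, and their SD over the 10 arrays had a median of 0.71 (0.51 to 1.07), against a median of 0.27 (0.11 to 0.75) for the other 34 probes. The 5 were the low probes of Hspd1, Edem1, Atf4 and Asns, and the single probe of Sdf2l1. The probes of Hspb1 also lay far apart, one at 2.14 to 3.14 (SD 0.31) and the other at -0.49 to 0.69 (SD 0.39).

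Among ER chaperones, Sdf2l1 and Creld2, which are induced by ER stress, had the smallest p-values in KO minus WT at 0 h. Sdf2l1 encodes a luminal partner of ER chaperone complexes. It measured -1.79, -1.24, -1.72, -1.60 and -1.01 on the KO arrays, against -0.48, -0.81, -1.31, -0.31 and -0.89 on the WT arrays. All 5 KO arrays lay below every WT array but the one at 1.5 h, which was the lowest of the WT arrays. The difference at 0 h was -0.87 (SE 0.27, adjusted p = 0.235) and the genotype average -0.71 (SE 0.20, adjusted p = 0.428). The difference at 0 h was -0.33 (adjusted p = 0.587) with quantile normalization and -0.43 (adjusted p = 0.422) with arrays scaled to equal spread. The average was -0.44 (adjusted p = 0.537) with quantile normalization and -0.86 (adjusted p = 0.457) without the KO 24 h array. Creld2 measured -0.73 and -0.86 in KO at 0 h, against -0.08 and -0.32 in WT at 0 h, a difference of -0.60 (SE 0.20, adjusted p = 0.258). That difference was -0.36 with quantile normalization (adjusted p = 0.402), -0.39 with equal spread (adjusted p = 0.356) and -0.26 with the local trend subtracted (adjusted p = 0.419). At 1.5, 6 and 24 h its KO values of -0.69, -0.52 and -0.51 were closer to the WT values of -0.62, -0.36 and -0.47.

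Hspa5 encodes BiP, the HSP70 of the ER lumen and the standard readout of the UPR. It measured 0.01, 0.17, 0.10, 0.34 and -0.30 on the KO arrays and 0.21, 0.17, 0.52, 0.57 and 0.34 on the WT arrays. KO was lower at each time, and KO minus WT was -0.11 at 0 h and -0.64 at 24 h, where it rests on the doubtful array. The genotype average was -0.30 (SE 0.13, adjusted p = 0.518), and -0.13 (adjusted p = 0.838) with the local trend along the spots subtracted. At 6 h of TNF-alpha the mean response of Hspa5 was 0.31 (SE 0.18, adjusted p = 0.999), with 0.25 in KO and 0.38 in WT.

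**Figure D3:**
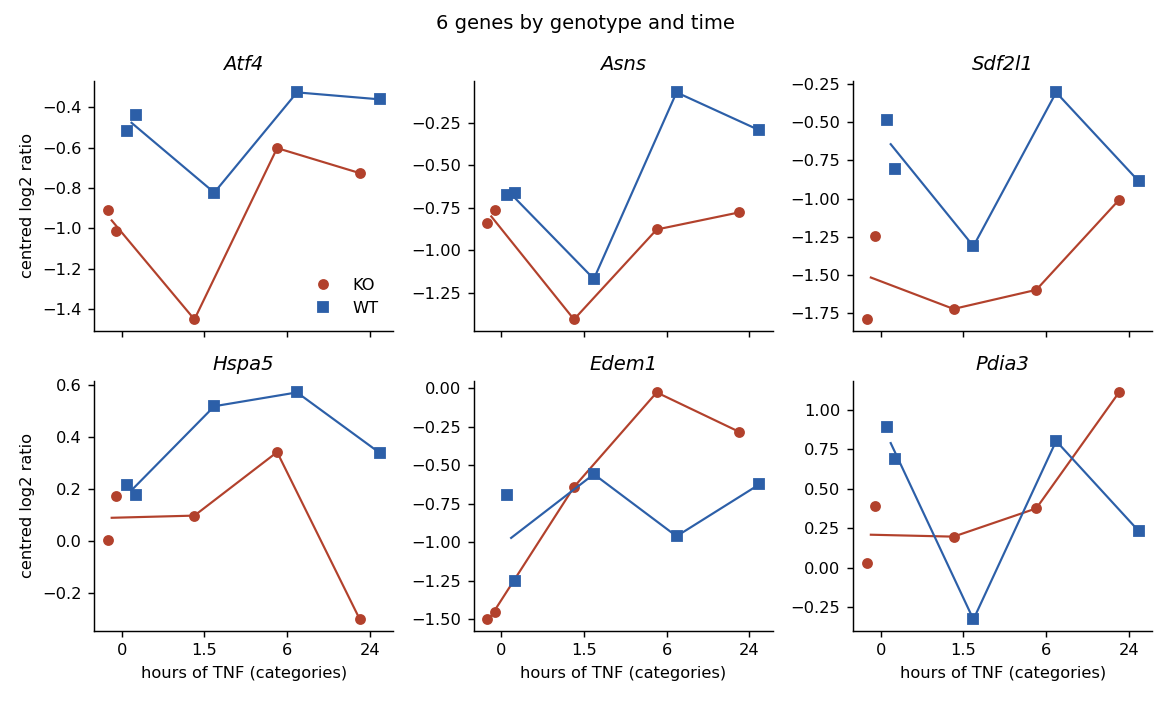
Centred log2 ratio (y axis, its scale differs by gene) of Atf4, Asns, Sdf2l1, Hspa5, Edem1 and Pdia3 at 0, 1.5, 6 and 24 h of TNF-alpha (x axis, evenly spaced categories), KO as red circles and WT as blue squares set slightly apart; each point is an array and lines run through the 0 h mean. KO lies below WT at all 4 times in the first 4 genes and crosses WT in Edem1 and Pdia3.

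Hsp90b1, the ER member of the HSP90 family, ranged from 0.10 to 0.30 on the KO arrays and from -0.03 to 0.66 on the WT arrays. Pdia4, a protein disulfide isomerase, ranged from 0.19 to 0.38 on KO arrays and from 0.28 to 0.85 on WT arrays, with its highest value on WT at 6 h. Manf, a small secreted protein induced by ER stress, was at 1.21 and 1.06 in KO at 0 h against 0.76 and 0.55 in WT at 0 h, opposite in direction to Sdf2l1 and Creld2. Its interaction was -0.85 at 6 h (SE 0.35, adjusted p = 0.374) and -0.58 at 24 h (SE 0.35, adjusted p = 0.534), and both turned positive (0.18 and 0.23) once the local trend along the spots was subtracted. With arrays scaled to equal spread they were -0.22 (adjusted p = 0.845) and -0.11 (adjusted p = 0.927).

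Calr and Canx encode calreticulin and calnexin, the lectin chaperones that hold newly made glycoproteins. Calr measured -0.70, -2.36, -0.36, -0.56 and -0.59 on the KO arrays and -0.33, 0.50, -0.63, -1.33 and -0.28 on the WT arrays. The values at -2.36 and 0.50 are both from b arrays at 0 h, and the a arrays lay 1.66 above in KO and 0.83 below in WT. The difference at 0 h of -1.62 had an SE of 0.60 (adjusted p = 0.274), and it was -2.45 without KO 0 h a and -0.79 without KO 0 h b. The interactions of Calr were 1.89 at 1.5 h (SE 1.04, adjusted p = 0.999) and 2.39 at 6 h (SE 1.04, adjusted p = 0.391), and 1.06 and 1.56 at these times without KO 0 h b. The mean of the 2 Canx probes ran from 0.06 to 0.51 on KO arrays and from 0.24 to 0.57 on WT arrays. These probes did not move together (r = -0.33). Over all arrays one ran from -0.085 to 0.665 and the other from -0.07 to 0.76, so their mean varied less than either.

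Pdia3 encodes the disulfide isomerase that works with calnexin and calreticulin, and its KO and WT courses crossed repeatedly. It measured 0.03, 0.39, 0.20, 0.38 and 1.11 on the KO arrays and 0.89, 0.69, -0.33, 0.80 and 0.23 on the WT arrays. KO was lower at 0 h and 6 h and higher at 1.5 h and 24 h. The difference at 0 h was -0.58 (SE 0.23, adjusted p = 0.287). The interaction was 1.10 at 1.5 h (SE 0.39, adjusted p = 0.999), where the WT array minus its 0 h mean was -1.11, and 1.46 at 24 h (SE 0.39, adjusted p = 0.276), where the doubtful KO array was 0.90 above its 0 h mean. The mean response of Pdia3 at 1.5 h was -0.56 (SE 0.34, adjusted p = 0.997), and -0.21 without the WT 1.5 h array.

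Dnajb9 and Dnajc3 encode BiP co-chaperones, which hold IRE1 and PERK in check. Dnajb9 measured 0.56, 0.41, 0.17, -0.08 and -0.44 on the KO arrays, against -0.13, 0.39, -0.01, -0.09 and 0.04 on the WT arrays. Its probes differed: one measured 0.61, 0.79, 0.09, -0.37 and -1.05 on the KO arrays and -0.63, 0.62, -0.15, -0.45 and -0.35 on the WT arrays, and the other 0.51, 0.04, 0.25, 0.22 and 0.16 on the KO arrays and 0.36, 0.16, 0.12, 0.27 and 0.43 on the WT arrays. The lower KO values at later times were thus on the first probe. With both probes averaged, the mean response of Dnajb9 was -0.39 at 6 h (SE 0.24, adjusted p = 0.999) and -0.51 at 24 h (SE 0.24, adjusted p = 0.715). On the same averages its interaction at 24 h was -0.84 (SE 0.43, adjusted p = 0.474). Dnajc3 measured 0.14, 0.38, 0.09, 0.00 and -0.66 on the KO arrays and -0.68, 0.03, 0.20, -0.27 and -0.60 on the WT arrays. Its mean response at 24 h was -0.60 (SE 0.26, adjusted p = 0.701), its interaction at 1.5 h was -0.70 (SE 0.51, adjusted p = 0.999) and -0.34 without WT 0 h a, and WT 0 h a was lower than both arrays at 24 h. Without the KO 24 h array the responses at 24 h were -0.15 for Dnajb9 and -0.40 for Dnajc3, and without the WT 24 h array that of Dnajb9 was -0.86.

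In ER-associated degradation, Edem1 had the largest differences. Edem1 encodes the lectin-like protein that hands misfolded glycoproteins to degradation. It measured -1.50, -1.45, -0.64, -0.03 and -0.28 on the KO arrays, and -0.69, -1.25, -0.56, -0.96 and -0.62 on the WT arrays. In KO each treated array was above both 0 h arrays, by 1.45 above their mean at 6 h and by 1.19 at 24 h, whereas WT was 0.01 above its 0 h mean at 6 h. The mean response was 0.63 at 1.5 h (SE 0.32, adjusted p = 0.997), 0.73 at 6 h (SE 0.32, adjusted p = 0.999) and 0.77 at 24 h (SE 0.32, adjusted p = 0.698). The interaction was 1.44 at 6 h (SE 0.44, adjusted p = 0.292) and 0.85 at 24 h (SE 0.44, adjusted p = 0.475). The interactions were 0.75 and 0.25 at 6 h and 24 h with quantile normalization (adjusted p = 0.501 and adjusted p = 0.852), and 0.86 and 0.30 with arrays scaled to equal spread. The mean response at 6 h was 0.17 without the KO 6 h array and 1.29 without the WT 6 h array.

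As with Atf4, the Edem1 differences rested on a single probe. The lower probe measured -2.92, -2.61, -1.18, -0.16 and -0.63 on KO arrays and -0.97, -2.31, -0.98, -1.69 and -0.72 on WT arrays, with an interaction at 6 h of 2.66 (SE 0.82, adjusted p = 0.304). The other stayed between -0.30 and 0.11 on KO arrays and between -0.52 and -0.14 on WT arrays, with an interaction of 0.24 (SE 0.40, adjusted p = 0.838).

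Herpud1, an ER membrane protein of the same pathway, was higher in KO at 6 h (-0.13) than in WT (-0.72), and KO minus WT was 0.10 at 0 h, -0.19 at 1.5 h and -0.01 at 24 h. Syvn1, the ubiquitin ligase HRD1 of the ER membrane, measured -0.83, -0.08, -0.32, -0.37 and -0.39 on the KO arrays and -0.10, -0.01, 0.06, -0.06 and -0.38 on the WT arrays. Its KO 0 h arrays were farther apart than any later KO array was from WT.

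The 7 tested members whose promoters hold the ER stress response element were not alike in the arrays. Their genotype averages ran from -0.50 (Calr) to 0.25 (Dnajc3), with a median of -0.29 and 6 of 7 below 0, and their responses at 6 h ran from -0.23 to 0.31. The 7 ER and degradation members without these letters had genotype averages from -0.71 to 0.21, with a median of 0.04 and 3 of 7 below 0. Both ranges overlap over most of their width.

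Among mitochondrial chaperones, Hspd1 has 2 probes and its differences depended on the probe. Hspd1 and Hspe1 encode the chaperonin and its co-chaperonin, which close over a protein to be folded. Hspd1 measured -1.27, -2.01, -1.16, -0.26 and -1.36 on the KO arrays and -0.98, -0.47, -0.84, -0.82 and -0.28 on the WT arrays. The difference at 0 h was -0.91 (SE 0.33, adjusted p = 0.268), the mean response at 6 h was 0.64 (SE 0.37, adjusted p = 0.999), and the interaction at 6 h was 1.48 (SE 0.57, adjusted p = 0.354). With quantile normalization the difference at 0 h was -0.47 and the interaction 0.95, and with arrays scaled to equal spread they were -0.33 (adjusted p = 0.591) and 0.79 (adjusted p = 0.551). Without KO 0 h b the difference at 0 h was -0.54. The response at 6 h was -0.05 without the KO 6 h array and 1.32 without the WT 6 h array. One Hspd1 probe ran from -4.55 to -0.93 on KO arrays and from -2.58 to -1.48 on WT arrays, and the other from 0.41 to 0.78 on KO arrays and from 0.18 to 0.93 on WT arrays. At 0 h they gave -2.07 (SE 0.49, adjusted p = 0.218) and 0.23 (SE 0.25, adjusted p = 0.658), opposite in sign.

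Hspe1, which shares its promoter stretch with Hspd1, measured 0.49, 0.29, 0.53, 0.20 and 0.80 on KO arrays and 0.31, 0.10, 0.35, 0.76 and 0.86 on WT arrays. Both genotypes were above their 0 h arrays at 24 h, with a mean response of 0.53 (SE 0.21, adjusted p = 0.697), and the response was 0.57 (adjusted p = 0.907) without the KO 24 h array and 0.30 (adjusted p = 0.663) with the local trend along the spots subtracted. Hspa9, the mitochondrial HSP70, measured 0.06, -0.11, -0.20, -0.07 and 0.44 on KO arrays and 0.38, 0.37, -0.36, 0.40 and 0.37 on WT arrays. Its mean response at 1.5 h was -0.45 (SE 0.20, adjusted p = 0.997), and its interaction there was 0.57 (SE 0.33, adjusted p = 0.999). Without the WT 1.5 h array the response was -0.22. WT at 1.5 h was the lowest of all 10 arrays for Hspa9, as it was for Pdia3.

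In the cytosol, Hspa1a and Hspb1 were on average higher in KO, and the other 5 tested members were lower. Hspa1a, an inducible HSP70, measured 0.23, 0.82, 0.47, 0.34 and 0.24 on the KO arrays and 0.10, -0.20, 0.29, 0.20 and 0.36 on the WT arrays. Hspb1, the small heat shock protein that keeps unfolding proteins from aggregating, measured 1.29, 1.92, 1.66, 1.44 and 1.08 on the KO arrays and 1.06, 1.27, 1.44, 1.08 and 1.53 on the WT arrays. These were the only cytosolic members that were higher in KO at 0 h, 1.5 h and 6 h, and both were lower in KO at 24 h. The interaction of Hspb1 at 24 h was -0.89 (SE 0.48, adjusted p = 0.490), and it was -0.54 (adjusted p = 0.625) with quantile normalization, -0.19 (adjusted p = 0.848) with arrays scaled to equal spread and -0.57 (adjusted p = 0.304) without KO 0 h b.

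Hspa8, the constitutive HSP70, and its partners Hsph1 and Hspa4, which act as nucleotide exchange factors for HSP70, were lower in KO at all 4 times. For Hspa8 and Hspa4 this holds for the means of their probes, since single probes of both were higher in KO at some time, as given above. Hspa8 measured -0.02, 0.40, 0.38, 0.07 and 0.47 on the KO arrays and 0.56, 0.16, 0.73, 0.70 and 0.65 on the WT arrays. Hsph1 measured 0.23, -0.16, 0.05, 0.07 and 0.68 on the KO arrays and 0.04, 0.51, 0.56, 0.65 and 0.78 on the WT arrays. Hspa4 measured 0.75, 0.73, 0.70, 0.56 and 1.06 on the KO arrays and 0.97, 0.87, 0.83, 1.23 and 1.19 on the WT arrays. The largest gaps for Hspa8 and Hspa4 were at 6 h, at -0.63 and -0.67, and for Hsph1 they were -0.51 at 1.5 h and -0.58 at 6 h. The genotype average of Hsph1 was -0.34 (SE 0.16, adjusted p = 0.534), and -0.17 (adjusted p = 0.744) with the local trend along the spots subtracted. Its mean response at 24 h was 0.57 (SE 0.22, adjusted p = 0.661), with 0.64 in KO and 0.51 in WT, and 0.43 (adjusted p = 0.991) without the KO 24 h array.

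Dnajb1, the co-chaperone that stimulates HSP70, measured 0.54, 0.23, 0.11, 0.28 and 0.60 on the KO arrays and 0.58, 0.73, 0.47, 0.26 and 0.40 on the WT arrays. Hsp90aa1, the inducible cytosolic HSP90, measured 0.51, 0.21, -0.01, 0.29 and 0.62 on the KO arrays and 0.63, 0.28, 0.21, 0.24 and 0.56 on the WT arrays. Both were lowest at 1.5 h in KO, and the genotypes overlapped throughout. The 3 probes of Hsp90aa1 differed, with correlations from -0.36 to 0.58 between pairs. Their lowest KO values were at 1.5 h (-0.68), 0 h b (-0.33) and 6 h (0.28). Hspa1a and Hspa1b are near-identical copies, and a probe may not tell such copies apart.

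**Figure D4:**
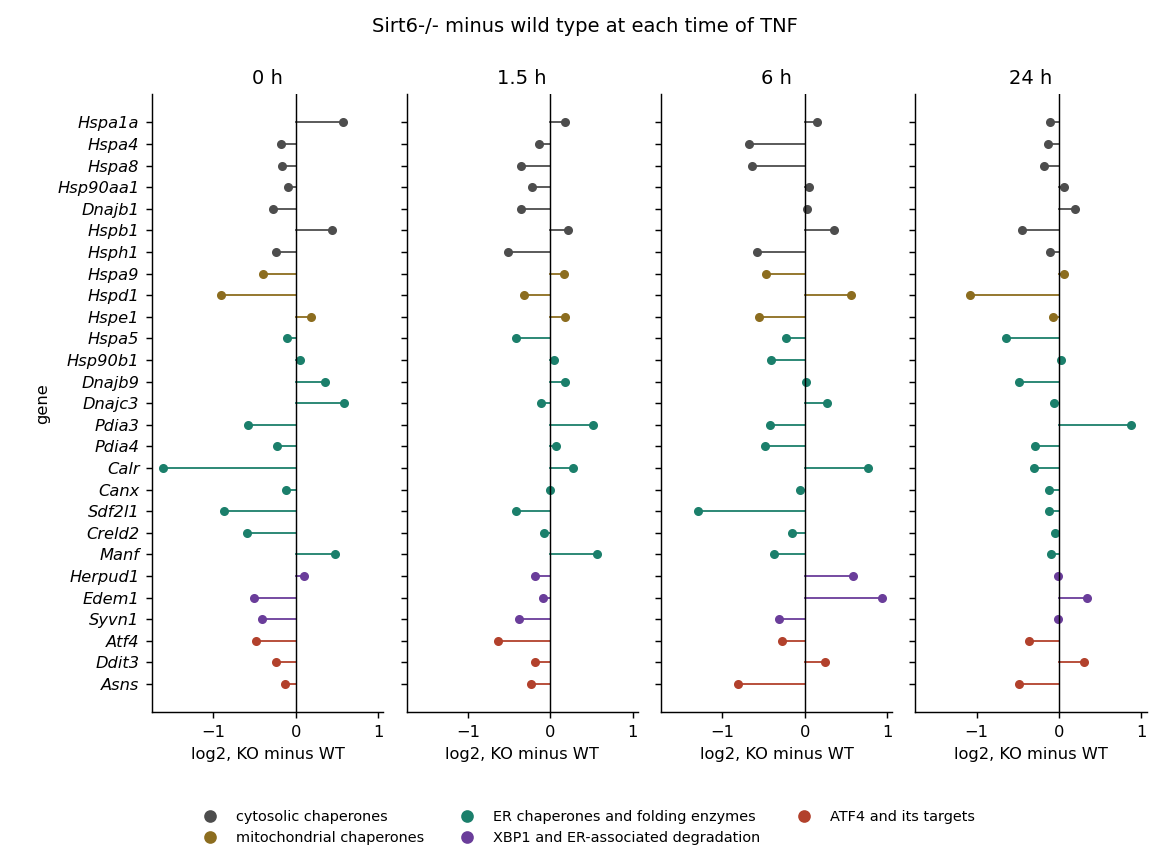
KO minus WT in log2 units (x axis) for the 27 members (y axis, coloured by class) at 0 h, where it is a difference of 2-array means, and at 1.5, 6 and 24 h, where it is a difference of single arrays. More points lie left of 0 than right at every time: 19, 17, 16 and 20 of 27. Over all genes the median difference at these times was -0.04, -0.01, -0.05 and 0.015, and 53.8% of genes were below 0 at 0 h. The 24 h panel rests on the doubtful KO 24 h array.

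By class, the median KO minus WT averaged over times was -0.36 in ATF4 and its targets (3 of 3 below 0), -0.21 in mitochondrial chaperones (3 of 3), -0.14 in cytosolic chaperones (5 of 7), -0.08 in ER chaperones (8 of 11) and 0.04 in XBP1 and ER-associated degradation (1 of 3), beside -0.03 over all genes. Over all members it was -0.14, with 20 of 27 below 0 (74.1%) where 54.4% of all genes were. At an unadjusted p under 0.05 there were 3 lower and 0 higher members (11.1%), against 9.68% of all genes. At 0 h the members' median was -0.18, beside -0.04 over all genes, and 6 members (22.2%) had an unadjusted p under 0.05, all lower in KO, against 17.2% of genes.

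In the responses to TNF-alpha the members' medians at 1.5, 6 and 24 h were -0.01, 0.08 and 0.17, beside 0.01, 0.02 and 0.04 over all genes. At an unadjusted p under 0.05 the counts were 2 members (7.41%) against 3.73% of genes at 1.5 h, 1 (3.7%) against 2.88% at 6 h, and 4 (14.8%) against 7.08% at 24 h. In the interactions the counts were 1 (3.7%) against 3.72% at 1.5 h, 2 (7.41%) against 13.9% at 6 h, and 1 (3.7%) against 13.1% at 24 h. Comparisons with 0 h share the 0 h arrays, and the averages and interactions share all of them, so these counts do not add up as separate observations.

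Leaving out KO 0 h a made 4 members pass in KO minus WT at 0 h. These were Calr (-2.45, adjusted p = 0.00750), Hspd1 (-1.28, adjusted p = 0.0197), Hspa1a (0.87, adjusted p = 0.0351) and Hspb1 (0.75, adjusted p = 0.0434). The same fit called 3264 genes (22.7%), its error coming from the WT pair alone, so the members' 14.8% was below the share of all genes. Calr (3.22) and Hspd1 (1.85) passed in the interaction at 6 h, where 18% of genes did, and Calr (2.14) and Pdia3 (1.28) in that at 24 h, where 14% did. Without KO 0 h b, Pdia3 passed in the interaction at 24 h (1.64, adjusted p = 0.0387) with 5.64% of genes.

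Of 110 other genes of these pathways, 99 were tested and 0 passed in any of the 8 comparisons. In the genotype average 3 were higher and 7 lower at an unadjusted p under 0.05 (limma, 10.1%, against 9.68% of all genes). Among 28 heat shock factors, co-chaperones and small heat shock proteins the 2 smallest p-values were Hspa14, an HSP70-like protein at the ribosome (-0.41, adjusted p = 0.454), and Cryab, the small heat shock protein alpha-B-crystallin (0.57, adjusted p = 0.462). Cryab is abundant in muscle, and the muscle genes were higher on the KO arrays, as given above, but a link between them was not tested. Of the 7 TRiC subunits, which form the cytosolic chaperonin, 6 were below 0, led by Tcp1 (-0.31, adjusted p = 0.502). Of 35 sensors, folding, transport and degradation genes 16 were below 0, with Os9, a lectin of ER-associated degradation, at 0.33 (adjusted p = 0.482) and Txndc5, a disulfide isomerase, at -0.74 (adjusted p = 0.494). Of 29 further genes of the ATF4 pathway 16 were below 0, led by Psph, an enzyme of serine synthesis (-0.48, adjusted p = 0.404), and Aars, alanyl-tRNA synthetase (-0.37, adjusted p = 0.504). Their median was -0.03, beside -0.02 for Ddit3, -0.36 for Asns and -0.45 for Atf4. In Asns and Atf4 a single probe of each carried the difference.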

How the data were processed

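Per the labels, total RNA in Cy5 was hybridised with a Cy3 universal mouse reference on 10 arrays. Each spot has a single log ratio, deposited by the authors and taken here as log2. Their normalization method was not given in the sources used here. Spots with values on all 10 arrays (36113 of 38784) were kept, each array was centred on its gene median, and probes with 1 symbol were averaged per gene. No column was left unused and no array was left out. Tests used limma 3.58.1 in R 4.3.3 (lmFit, eBayes, two-sided), Benjamini-Hochberg adjusted over 14365 genes within each of 8 comparisons, with a threshold of 0.05. Responses and the genotype average were fitted with genotype and time as additive terms (5 residual and 3.64 prior degrees of freedom). The 0 h difference and the interactions were fitted with a mean for each group (2 residual and 3.33 prior), whose error is the gap within 0 h pairs. The script was tested on simulated data. The number of arrays limits the precision.

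Members and lists were chosen with earlier results of these data known. Statistics are given for called members and for the 5 with the smallest p per comparison, and for other lists the 2 smallest. Alternatives were no centring, quantile normalization, scaling to equal spread, removal of a running median over 101 spots, each probe alone, values on at least 8 arrays, the genes of above-median SD, a robust prior, an adjusted p under 0.1, a replicate block, the other model, and leaving out each array. Letters a and b share only a letter across genotypes: deviations of KO 0 h a and WT 0 h a correlated at -0.0053 over genes.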

Additional observations from a re-analysis of the deposited data

How the results depend on the processing

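The count of members called stayed at 0 in every comparison under every alternative except those that left out a KO 0 h array, where it reached 0 to 4 in KO minus WT at 0 h and 0 to 2 in the interactions at 6 h and 24 h. The median over members in KO minus WT at 0 h was -0.34 without centring and -0.49 over genes with an SD above the median, and the genotype average was -0.20 and -0.35 under the same settings, with the direction unchanged. The median response at 24 h was 0.10 without centring, 0.0548 with quantile normalization and 0.10 with the spot-order trend subtracted, which also put the median at 1.5 h at -0.10. At 6 h it was 0.17 over genes with an SD above the median. Leaving out each array gave medians of -0.142 to 0.0149 at 1.5 h, -0.0242 to 0.151 at 6 h and -0.215 to -0.0724 in the genotype average. Manf in the interactions turned to 0.18 at 6 h and 0.23 at 24 h with the spot-order trend subtracted, and the response of Hspd1 at 6 h was -0.0458 to 1.32 over the arrays left out. The cause was not tested. Over the alternatives, the changes of named members kept their direction and side of the threshold in 771 comparisons with the main setting, passed the threshold in 6 and turned sign in 3. Of 40 such changes, 14 were over 1.5 times smaller with quantile normalization, 12 with arrays scaled to equal spread and 13 with the spot-order trend subtracted. The robust prior, the adjusted p under 0.1 and the replicate block leave the size of a change as it is, so they could not turn a sign. Leaving out an array at 1.5, 6 or 24 h likewise leaves the 0 h differences and the interactions at other times unchanged. Part of the 771 was thus fixed in advance, and the tally does not measure how robust the changes are. The tally is by gene and does not count single probes of a gene that differed in sign, as given above for Hspd1 and Atf4.

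With the letters as a replicate block, 0 members were called in each comparison. The block cannot change the estimates, so the member medians of -0.18 at 0 h and -0.14 in the genotype average are the same by construction. With 1 array per later time, only the 0 h pairs measure the spread between arrays. The gap of a 0 h pair had a median of 0.30 for members in KO and 0.24 in WT. Many pairs had larger gaps, so a difference above these medians is not thereby told from the spread between arrays.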

Other observations

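The KO 1.5 h array held the lowest value of 5 of the 27 members (18.5%, against 10.6% of all genes) and the highest of 0, against 9.05% of all genes. The WT 6 h array held the highest value of 7 members (25.9%, against 9.48% of all genes) and the lowest of 0, against 7.25% of all genes. KO 0 h a, KO 0 h b and WT 0 h b each held the lowest value of 5 members (18.5%), where they held that of 10.5%, 19.6% and 10.3% of all genes. Hspa4, Pdia4, Asns and Sdf2l1 were among those highest on the WT 6 h array. Outside the members, Derl3, an ER-associated degradation gene of the XBP1 branch, had the smallest p of its list in KO minus WT at 0 h (-0.90, limma adjusted p = 0.194) and in the interaction at 6 h (1.80, adjusted p = 0.196), the same directions as Edem1. Bag3 and Cryab, partners in chaperone-assisted autophagy in muscle, had the smallest p-values of theirs in the interaction at 24 h (1.35, adjusted p = 0.306, and 1.18, adjusted p = 0.294), which rests on the KO 24 h array.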
